A study of Mus musculus with 9 samples.

Results

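The homeostatic astrocyte genes are the glutamate transporters, gap junction proteins, water channel, enzymes and identity markers by which resting astrocytes of the brain are recognised. The set was defined by gene symbol: Aqp4, Slc1a2, Slc1a3, Gja1, Gjb6, Aldh1l1, Glul, Sox9 and S100b, 9 of the 24411 genes listed for each mouse. It was chosen with earlier results of these data known, so its counts and medians are descriptions. All 9 passed the minimum level for testing, which 14867 genes passed. They were measured by RNA-Seq of the hippocampus of 9 male wild type C57BL/6J mice aged 10 weeks, in 3 groups of 3: CUG300 mice given CWG-cPIP, CUG300 mice given vehicle, and CUG10 mice given vehicle. Every mouse, controls included, carried an AAV9 vector expressing Egfp with CTG repeats in the 3′-UTR (300 repeats in CUG300 mice, 10 in CUG10 mice), injected bilaterally into CA1 of the dorsal hippocampus. CWG-cPIP, a cyclic pyrrole-imidazole polyamide that binds CAG/CTG repeat DNA, or its dilute DMSO vehicle was injected in the same mixture as the virus, and RNA was taken on the tenth day afterwards. The model therefore rests on local gene transfer rather than on a germline repeat, RNA came from all cells of the tissue, and no group without virus and no CUG10 group given CWG-cPIP was analysed here.

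Astrocytes keep the space around synapses fit for transmission. They take up glutamate through the transporters encoded by Slc1a2 (GLT-1) and Slc1a3 (GLAST), turn it into glutamine with glutamine synthetase (Glul), and share ions and small molecules through gap junctions built from connexin 43 (Gja1) and connexin 30 (Gjb6). Their endfeet on blood vessels are rich in the water channel aquaporin-4 (Aqp4), and Aldh1l1, an enzyme of folate metabolism, Sox9, a transcription factor, and S100b, a calcium-binding protein, serve as identity markers. After injury astrocytes become reactive, a state marked by the intermediate filament genes Gfap and Vim.

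The deposited files give regularized logarithms (rlog) in log2 units, on which a difference of 1 stands for a doubling. They are shrunk toward each gene's mean, so that fold changes computed from them are, if anything, smaller than ratios of counts, and because no counts were given the depth of each library is unknown. Medians over the genes tested lay between 8.43 and 8.54 per mouse. Replicates resembled each other less in the CUG300 groups: over the genes tested, which are not independent of each other, the lowest Pearson's r of a pair was 0.970 with CWG-cPIP, 0.978 with vehicle and 0.993 in CUG10 mice. Each mouse had its own library. In bulk tissue, fewer astrocytes and less RNA per astrocyte cannot be told apart.

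The promoters of 4 members are shown because these genes differ in what follows: Gja1 and Glul had low values in CUG300 mice given vehicle, Aldh1l1 had high ones, and Slc1a3 had the same mean as in CUG10 mice. Each window spans 250 bases before and 50 bases after the transcription start, on the strand of the gene, from RefSeq on GRCm38.p6, and 7 of the 9 members had an entry in the table, Aqp4 and Sox9 having none. Capitals mark matches to a motif. Gja1 lies at chr10:56377050-56377349 on the plus strand, Glul at chr1:153899679-153899978 on the plus strand, Aldh1l1 at chr6:90550543-90550842 on the plus strand, and Slc1a3 at chr15:8710758-8711057 on the minus strand.
Gja1: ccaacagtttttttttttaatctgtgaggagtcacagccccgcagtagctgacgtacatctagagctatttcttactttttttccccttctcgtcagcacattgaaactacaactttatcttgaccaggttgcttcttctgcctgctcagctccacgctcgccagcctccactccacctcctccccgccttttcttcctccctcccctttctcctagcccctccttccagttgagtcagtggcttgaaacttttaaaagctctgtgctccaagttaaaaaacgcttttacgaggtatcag
Glul: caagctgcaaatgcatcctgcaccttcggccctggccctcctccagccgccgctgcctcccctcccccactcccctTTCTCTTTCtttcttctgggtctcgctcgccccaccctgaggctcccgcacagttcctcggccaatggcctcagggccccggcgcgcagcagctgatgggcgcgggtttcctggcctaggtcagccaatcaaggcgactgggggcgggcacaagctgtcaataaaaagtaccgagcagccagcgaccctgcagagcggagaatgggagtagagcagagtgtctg
Aldh1l1: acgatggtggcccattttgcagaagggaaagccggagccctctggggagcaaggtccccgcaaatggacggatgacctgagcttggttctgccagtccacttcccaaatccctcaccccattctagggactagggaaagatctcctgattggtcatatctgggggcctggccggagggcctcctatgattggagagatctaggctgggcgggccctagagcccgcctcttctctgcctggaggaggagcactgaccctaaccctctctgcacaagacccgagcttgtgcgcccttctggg
Slc1a3: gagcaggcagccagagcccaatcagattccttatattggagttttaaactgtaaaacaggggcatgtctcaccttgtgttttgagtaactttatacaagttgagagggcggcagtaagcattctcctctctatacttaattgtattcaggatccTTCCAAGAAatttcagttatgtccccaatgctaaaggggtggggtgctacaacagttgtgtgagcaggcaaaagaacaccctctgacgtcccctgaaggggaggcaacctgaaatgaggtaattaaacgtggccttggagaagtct
The motifs below were searched on both strands. A GAS site (TTCNNNGAA), the kind bound by STAT proteins, was found only in Slc1a3, at position -96 from the start, and in 8.3% of all 32851 promoters of this length. An ISRE core (GAAANNGAA), the kind bound by interferon regulatory factors, was found only in Glul, at -174 and on the opposite strand, and in 8.6% of all promoters. The NFI site TTGGCA was found only in S100b, at -19, and in 14.1% of all promoters. The SOX site AACAAT was found in 0 of the 7 members and in 10.7% of all promoters. The window listed for Slc1a2 lies inside the gene and away from its RefSeq start, and it is not shown. These matches are descriptions of the letters in the windows.

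On GRCm38, the build the authors used, Aqp4 lies on chromosome 18 from 15389394 to 15410982, Slc1a2 on chromosome 2 from 102658239 to 102790784, and Slc1a3 on chromosome 15 from 8634124 to 8710807. Gja1 spans 56377300 to 56390419 on chromosome 10, where S100b also lies, from 76253836 to 76261319. Gjb6 lies on chromosome 14 from 57123301 to 57133611, Aldh1l1 on chromosome 6 from 90550768 to 90599171, Glul on chromosome 1 from 153899929 to 153909723, and Sox9 on chromosome 11 from 112782210 to 112787757. Values are per whole gene. An annotated gene overlaps on the opposite strand for Aqp4 (AC133525.2), Slc1a2 (Gm13872), S100b (Dip2a), Glul (Teddm2) and Aldh1l1 (Gm15756), and on the same strand for Slc1a3 (Gm37310), Glul (Mir8114) and Aldh1l1 (Gm45901 and Gm44236). The libraries were directional, but whether the counting used strand is not given in the sources used here, so reads shared with these neighbours could not be separated.

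In CUG300 mice given vehicle Aqp4 was higher than in CUG10 mice, by 1.88-fold, and was the only homeostatic gene to pass the test across all genes (limma, Benjamini-Hochberg adjusted p under 0.05). Of the 9 members, 1 was called higher and 0 lower, beside 7.37% of all genes tested called higher and 3.34% called lower. These shares stand for 1096 and 496 genes, or 1014 and 908 after median centering and 888 and 642 after quantile scaling, where Aqp4 was still the only member called. In 3 members, Aqp4, Aldh1l1 and Sox9, all CUG300 mice given vehicle lay above all CUG10 mice, beside 18.2% of all genes. In 3 others, Slc1a2, Gja1 and Glul, all of them lay below, beside 16.7% of all genes. The median log2 fold change of the members was -0.35, beside -0.01 over all genes tested, and 5 members had an unadjusted p under 0.05, as did 4536 genes in all.

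Between CUG300 mice given CWG-cPIP and those given vehicle, no member passed the test, and neither did any other gene. The share called was 0% in each direction, and 1312 genes had an unadjusted p under 0.05, among them 2 members, Gja1 and Sox9. The groups overlapped in all 9 members, whereas 4.97% of all genes lay wholly higher and 3.5% wholly lower with CWG-cPIP. The members' median log2 fold change was 0.26, beside -0.0032 over all genes. Against CUG10 mice, the CUG300 mice given CWG-cPIP again had 0 members called, with 0% of all genes called in each direction and 1997 genes at an unadjusted p under 0.05. Aqp4 alone did not overlap, lying higher, beside 13.4% of all genes wholly higher and 12.4% wholly lower. An F test between all groups called 0 members and 0% of all genes. Aqp4 had a limma F test adjusted p of 0.0547, the smallest of any gene but one that the adjustment gave to many genes alike. It therefore does not rank Aqp4 first. In the same F test 4 members and 3499 genes had an unadjusted p under 0.05. The 3 comparisons share groups of mice, so their values below are not independent of each other.

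**Figure D1:**
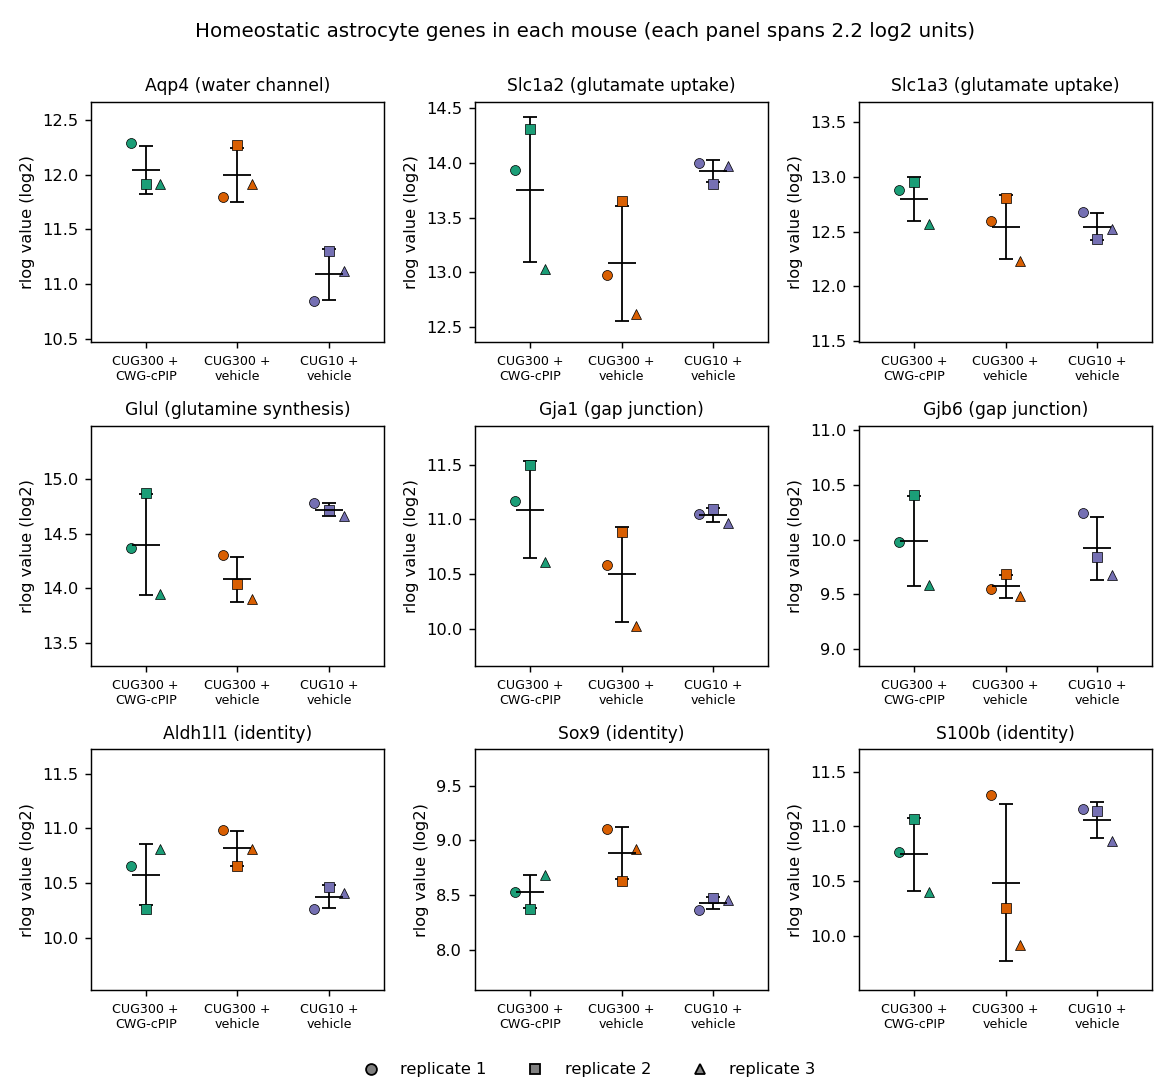
rlog values (log2) of the 9 homeostatic astrocyte genes in each mouse, in CUG300 mice given CWG-cPIP, CUG300 mice given vehicle and CUG10 mice given vehicle, with 3 mice per group. Symbols are mice, long dashes are group means and bars are SDs, and every panel spans the same log2 range; in the Aqp4 panel both CUG300 groups, at 11.80 or more, lie above the CUG10 mice, at 11.30 or less.

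Aqp4, the endfoot water channel, had rlog values of 12.29, 11.92 and 11.92 in the CUG300 mice given CWG-cPIP, 11.80, 12.27 and 11.92 in those given vehicle, and 10.84, 11.30 and 11.12 in CUG10 mice. All 6 CUG300 mice lay above all CUG10 mice, and the 2 CUG300 groups covered nearly the same range. The means were 11.99 ± 0.25 in CUG300 mice given vehicle and 11.09 ± 0.23 in CUG10 mice (SD, n = 3 each), a log2 fold change of 0.91 with an SE of 0.17 and a 95% interval of 0.53 to 1.29 (limma adjusted p = 0.0227). With CWG-cPIP the mean was 12.04 ± 0.22. This differed from the vehicle group by 0.05 (95% interval -0.34 to 0.43, limma adjusted p = 0.891) and from CUG10 mice by 0.96 (95% interval 0.57 to 1.34, limma adjusted p = 0.119, or 0.0251 without CWG-cPIP replicate 2). The Aqp4 call in CUG300 mice given vehicle was lost, with a log2 fold change still between 0.79 and 1.02, without CUG10 replicate 1 (limma adjusted p = 0.0864), replicate 2 (0.0614) or replicate 3 (0.102), and without CUG300 vehicle replicate 3 (0.0917). Few genes of any kind passed in those 4 fits, 0 to 2 in all.

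Among the glutamate genes, Slc1a2 (GLT-1), the transporter that carries out most glutamate uptake in the adult forebrain, had 13.94, 14.31 and 13.03 in the mice given CWG-cPIP, 12.98, 13.65 and 12.62 in CUG300 mice given vehicle, and 14.00, 13.81 and 13.97 in CUG10 mice. The CUG10 mice were tightly grouped and all above the vehicle-treated CUG300 mice, whereas CWG-cPIP replicate 3 lay among the vehicle-treated mice and replicate 2 above every CUG10 mouse. The difference between CUG300 mice given vehicle and CUG10 mice was -0.85 (SE 0.34, 95% interval -1.61 to -0.09, limma adjusted p = 0.128). It was -1.13 and just past the threshold without CUG300 vehicle replicate 2 (limma adjusted p = 0.0499), and also passed without CWG-cPIP replicate 3 (0.0489). CWG-cPIP differed from vehicle by 0.67 (95% interval -0.09 to 1.43, limma adjusted p = 0.483) and from CUG10 mice by -0.17 (95% interval -0.93 to 0.59).

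Slc1a3 (GLAST), the second astrocyte glutamate transporter, had 12.88, 12.95 and 12.57 with CWG-cPIP, 12.60, 12.80 and 12.23 in CUG300 mice given vehicle, and 12.68, 12.43 and 12.53 in CUG10 mice. The CUG10 values fell inside the range of the vehicle-treated CUG300 mice. The difference of these 2 groups was -0.0018, with a 95% interval of -0.37 to 0.36 (limma adjusted p = 0.996), so a change of up to about that size in either direction is left within the error. CWG-cPIP differed from vehicle by 0.26 (95% interval -0.11 to 0.62) and from CUG10 mice by 0.25 (95% interval -0.11 to 0.62).

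Glul, glutamine synthetase, had 14.37, 14.87 and 13.95 with CWG-cPIP, 14.30, 14.04 and 13.90 in CUG300 mice given vehicle, and 14.78, 14.71 and 14.66 in CUG10 mice. The highest vehicle-treated CUG300 mouse lay below the lowest CUG10 mouse, and the CWG-cPIP mice spanned both groups. The difference between CUG300 mice given vehicle and CUG10 mice was -0.64 (SE 0.21, 95% interval -1.12 to -0.15, limma adjusted p = 0.0852). It passed the test when only these 2 groups were fitted (limma adjusted p = 0.0272), and without CWG-cPIP replicate 2 (0.0306) or replicate 3 (0.0325). CWG-cPIP differed from vehicle by 0.32 (95% interval -0.17 to 0.80) and from CUG10 mice by -0.32 (95% interval -0.80 to 0.16).

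Of the gap junction genes, Gja1, connexin 43, had 11.17, 11.49 and 10.61 with CWG-cPIP, 10.58, 10.88 and 10.02 in CUG300 mice given vehicle, and 11.05, 11.09 and 10.97 in CUG10 mice. Vehicle-treated CUG300 mice all lay below CUG10 mice, by -0.54 on average (SE 0.25, 95% interval -1.11 to 0.03, limma adjusted p = 0.181). CWG-cPIP differed from vehicle by 0.59 (SE 0.25, 95% interval 0.03 to 1.16, limma adjusted p = 0.483) and from CUG10 mice by 0.05 (95% interval -0.51 to 0.62).

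Gjb6, connexin 30, had 9.98, 10.41 and 9.59 with CWG-cPIP, 9.55, 9.69 and 9.48 in CUG300 mice given vehicle, and 10.24, 9.84 and 9.68 in CUG10 mice. The vehicle-treated CUG300 mice were close together, and the highest of them barely passed the lowest CUG10 mouse. Their difference from CUG10 mice was -0.35 (95% interval -0.82 to 0.12, limma adjusted p = 0.286), and that of CWG-cPIP from vehicle 0.42 (95% interval -0.06 to 0.89, limma adjusted p = 0.483). With the choroid plexus mean added to the model, the difference of CWG-cPIP from vehicle was -0.08. Neither connexin passed the test.

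None of the identity genes passed the test with all mice. Sox9, a transcription factor of the astrocyte lineage, had 8.53, 8.38 and 8.68 with CWG-cPIP, 9.10, 8.63 and 8.92 in CUG300 mice given vehicle, and 8.36, 8.47 and 8.45 in CUG10 mice. All vehicle-treated CUG300 mice lay above all CUG10 mice, by 0.46 on average (SE 0.14, 95% interval 0.15 to 0.77, limma adjusted p = 0.0637), and by 0.58 without CUG300 vehicle replicate 2, where it passed (limma adjusted p = 0.0318). CWG-cPIP differed from vehicle by -0.35 (95% interval -0.66 to -0.04, limma adjusted p = 0.483) and from CUG10 mice by 0.10 (95% interval -0.21 to 0.41).

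Aldh1l1 had 10.65, 10.27 and 10.81 with CWG-cPIP, 10.98, 10.66 and 10.81 in CUG300 mice given vehicle, and 10.26, 10.46 and 10.41 in CUG10 mice. Again all vehicle-treated CUG300 mice were above all CUG10 mice, by 0.44 on average (SE 0.15, 95% interval 0.11 to 0.78, limma adjusted p = 0.0835), and CWG-cPIP replicate 3 stood with them. This passed the test only without CWG-cPIP replicate 2 (limma adjusted p = 0.0393). The difference of CWG-cPIP from vehicle was -0.24 (95% interval -0.58 to 0.09) and from CUG10 mice 0.20 (95% interval -0.13 to 0.54).

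S100b, a calcium-binding protein that oligodendrocytes also express, had 10.76, 11.07 and 10.40 with CWG-cPIP, 11.29, 10.25 and 9.91 in CUG300 mice given vehicle, and 11.16, 11.14 and 10.87 in CUG10 mice. Vehicle-treated CUG300 replicate 1 had the highest value of all mice and replicate 3 the lowest, giving this group the widest spread of any member (SD 0.72). The difference from CUG10 mice was -0.57 (SE 0.32, 95% interval -1.29 to 0.15, limma adjusted p = 0.253), and it was -0.98 and passed the test without CUG300 vehicle replicate 1 (limma adjusted p = 0.0308). CWG-cPIP differed from vehicle by 0.26 (95% interval -0.46 to 0.98) and from CUG10 mice by -0.32 (95% interval -1.03 to 0.40). The summed level of 8 oligodendrocyte genes, on the log2 scale, was 16.21, 16.62 and 16.00 with CWG-cPIP, 17.10, 15.72 and 16.26 in CUG300 mice given vehicle, and 16.66, 17.15 and 16.84 in CUG10 mice. Its part in the S100b values was not tested.

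**Figure D2:**
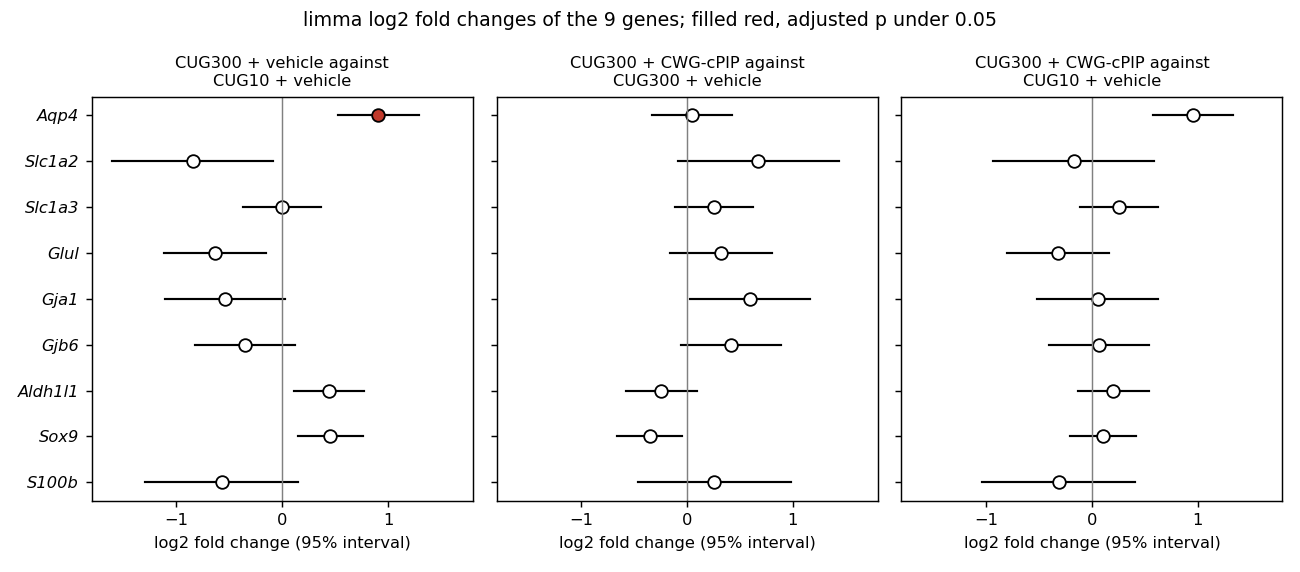
log2 fold changes of the 9 genes with 95% intervals from limma, for vehicle-treated CUG300 against CUG10 mice, CWG-cPIP against vehicle, and CWG-cPIP-treated CUG300 against CUG10 mice. Only Aqp4 in the CUG300 vehicle against CUG10 panel, at 0.91, is filled (adjusted p under 0.05); its value is 0.05 for CWG-cPIP against vehicle.

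Mice given the same treatment differed widely. The SD of a member within the CWG-cPIP group had a median of 0.337 and reached 0.659 in Slc1a2, beside a median of 0.246 in CUG300 mice given vehicle and 0.103 in CUG10 mice. The spread was widest in the CWG-cPIP group for 5 members, in the vehicle-treated CUG300 group for 4 and in CUG10 mice for 0. CWG-cPIP replicate 2 had the highest Slc1a2, Slc1a3, Glul, Gja1 and Gjb6 of all 9 mice. CWG-cPIP replicate 3 lay within the range of the vehicle-treated CUG300 mice in all 9 members, replicate 2 in 2 and replicate 1 in 1. The mean over 15 reactive astrocyte genes was 9.19, 8.42 and 9.79 in CWG-cPIP replicates 1, 2 and 3, against 9.64, 9.53 and 10.07 in CUG300 mice given vehicle. It was thus highest in replicate 3 and lowest in replicate 2 of the mice given CWG-cPIP, whereas Aqp4 was highest in replicate 1.

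To ask which members moved apart from the rest, each value was set against the mean of the 9 members in the same mouse, which removes any scaling common to a library. Relative to that mean Aqp4 was 0.67 ± 0.29 in CUG300 mice given vehicle and -0.37 ± 0.25 in CUG10 mice (SD, n = 3 each), a difference of 1.03. Sox9 and Aldh1l1 were also higher on this scale, by 0.58 and 0.57, while Slc1a2, Glul and Gja1 differed by -0.72, -0.51 and -0.41. In these 6 members the 2 groups did not overlap, as they did not before the mean was subtracted. An exact two-sided permutation test gave p = 0.1 for each, the smallest p that 3 against 3 mice allow. This test could therefore not pass the threshold for any member, and nothing is concluded from it. Values set against their own mean must balance, so higher values in some members force lower ones in others. No share over all genes was taken on this scale. Slc1a3, Gjb6 and S100b overlapped (exact permutation p = 0.3 to 0.4). For CWG-cPIP against vehicle every member overlapped on this scale, with differences from -0.57 in Sox9 to 0.46 in Slc1a2.

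Differences within a mouse were also taken for 6 pairs of genes, picked after their values were seen and therefore given with no test. Between CUG300 mice given vehicle and CUG10 mice, 2 pairs did not overlap and 4 did. The Slc1a2 value minus the Slc1a3 value in the same mouse was 1.06, 1.36 and 0.46 with CWG-cPIP, 0.38, 0.85 and 0.39 in CUG300 mice given vehicle, and 1.33, 1.38 and 1.45 in CUG10 mice. The 2 glutamate transporters were thus further apart in every CUG10 mouse than in any vehicle-treated CUG300 mouse. Aqp4 minus Kcnj10, the potassium channel of the same endfeet, was 1.04, 0.28 and 1.42 with CWG-cPIP, 1.71, 1.13 and 1.82 in CUG300 mice given vehicle, and 0.03, 0.47 and 0.28 in CUG10 mice. Kcnj10 itself differed by -0.39 between these groups (95% interval -1.13 to 0.36, limma adjusted p = 0.457). Sox9 minus Aldh1l1 stayed within -2.13 and -1.88 in all 9 mice. In the remaining pairs, which also overlapped, vehicle-treated CUG300 mice differed from CUG10 mice by -0.19 in Gja1 minus Gjb6, by -0.30 in Aqp4 minus Gfap and by -0.21 in Slc1a2 minus Glul.

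**Figure D3:**
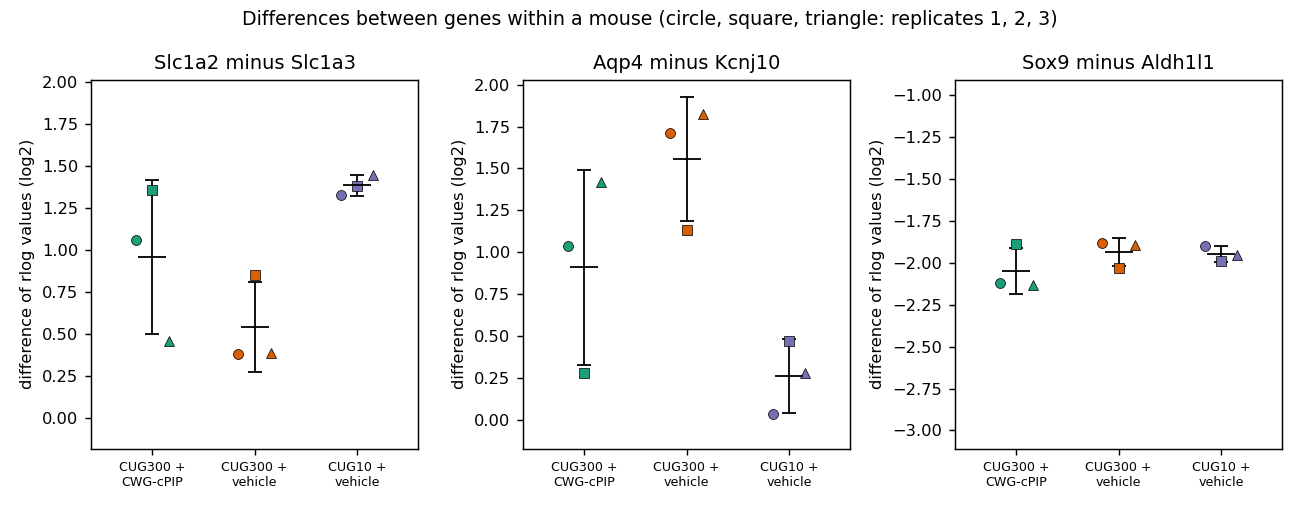
Differences of rlog values (log2) between 2 genes within a mouse, for CUG300 mice given CWG-cPIP, CUG300 mice given vehicle and CUG10 mice given vehicle. Symbols are mice, long dashes are means and bars are SDs (n = 3); Slc1a2 minus Slc1a3 is at most 0.85 in vehicle-treated CUG300 mice and at least 1.33 in CUG10 mice, and Sox9 minus Aldh1l1 is nearly level.

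Correlations were taken across the 9 mice, which include the group differences, for 2 sets of members picked after their values were seen. High r within a set and negative r between the sets therefore follow in part from that choice. Pearson's r was 0.781 to 0.955 among Slc1a2, Gja1, Gjb6 and Glul (6 pairs), 0.925 between Aldh1l1 and Sox9, and -0.886 to -0.696 between the 2 sets (8 pairs). After removing group means, r was 0.718 to 0.948 in the 6 pairs, 0.872 between Aldh1l1 and Sox9, and -0.852 to -0.315 in the 8 pairs between the sets, a wider range that reached closer to 0 than over all mice. Aqp4 was placed in neither set, with r between -0.615 and 0.560 to the other members and between -0.386 and 0.354 within groups. Slc1a3 and S100b were also left out of both. With the genes of the first set, r over the 9 mice was 0.354 (Glul) to 0.774 (Gja1) for Slc1a3. After removing group means it was 0.626 (Glul) to 0.91 (Gja1), so within groups Slc1a3 varied with these genes. For S100b r was 0.527 (Gjb6) to 0.818 (Glul) over the 9 mice and 0.346 (Slc1a2) to 0.751 (Glul) within groups. These correlations describe 9 libraries that share their scaling and carry no test.

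The genes outside the set with the profile most like the mean of the members over the 9 mice were Tspan12 (r = 0.984), Cyp2j9 (r = 0.983), Fundc1 (r = 0.976), Adhfe1 (r = 0.976) and Klhl5 (r = 0.961). Aqp4 was most like Zfp521, a zinc finger gene (r = 0.988), Igsf10 (r = 0.959) and Zfp97 (r = 0.959). Gja1 was most like Gpr37l1, a receptor gene of glia (r = 0.995), Edil3 (r = 0.987) and Tmem18 (r = 0.986). Glul was most like Rcan2 (r = 0.990), C1ql1 (r = 0.976) and Cbs (r = 0.975), the last an astrocyte enzyme of sulfur amino acid metabolism. Sox9 was most like Pbxip1 (r = 0.983), Micu2 (r = 0.979) and Eef2kmt (r = 0.977). With 14867 genes and 9 mice, high values of r are found for any profile.

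**Figure D4:**
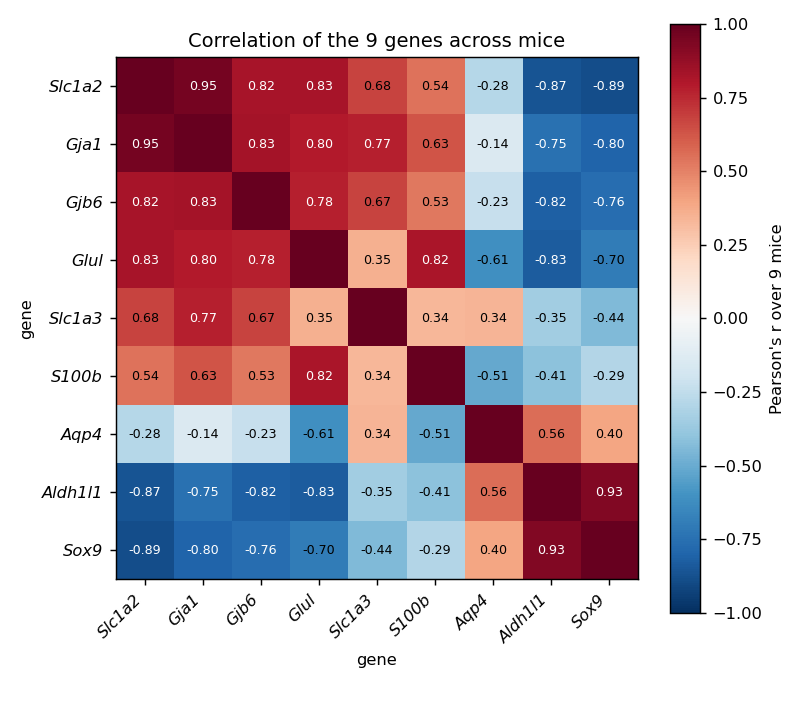
Pearson's r between each pair of the 9 genes over the 9 mice, from blue (-1) to red (1). Slc1a2, Gja1, Gjb6 and Glul form a red block (0.781 to 0.955), Aldh1l1 and Sox9 a second one (0.925), and the cells joining them are blue (-0.886 to -0.696). These sets were picked after their values were seen.

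Other astrocyte genes were read from lists of known function. Of 15 further identity genes, 0 passed the test in vehicle-treated CUG300 against CUG10 mice, 13 had lower values and the median log2 fold change was -0.39, beside -0.01 over all genes. The list held Aldoc (-0.63, limma adjusted p = 0.272), an astrocyte glycolytic enzyme, Fgfr3 (-0.21), a growth factor receptor, Ntsr2 (-1.01, limma adjusted p = 0.0694), an astrocyte neurotensin receptor, and Id4 (-0.70, limma adjusted p = 0.0643), an inhibitor of differentiation. Of 13 genes of endfoot anchoring and ion buffering, 0 passed and the median was -0.19. Kcnj10 (-0.39), the bicarbonate cotransporter gene Slc4a4 (-0.48) and the GABA transporter gene Slc6a11 (-0.65) had lower values, and Fxyd1 (0.49), a sodium pump regulator, a higher one.

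Of 12 further genes of the glutamate-glutamine cycle, 1 fell and 0 rose, beside 3.34% of all genes called lower and 7.37% higher. Their median was -0.20. The number called was 0 when any of the CUG10 mice, vehicle-treated CUG300 replicate 3 or CWG-cPIP replicate 1 was left out. It was 3 without vehicle-treated CUG300 replicate 2, a fit that called 1323 genes higher and 1166 lower of 14866 tested. Slc17a7, a vesicular glutamate transporter of excitatory neurons, differed by -0.62 (limma adjusted p = 0.0513). Slc1a1, the neuronal glutamate transporter, differed by -0.22 and the cystine-glutamate exchanger Slc7a11 by 0.55. Of 8 other connexin and pannexin genes tested, with Gja5 below the minimum level, 0 passed and the median was 0.02. Gjb2, a connexin of the meninges and some astrocytes, differed by 0.68 and Gjc3, a connexin of oligodendrocytes, by -0.85. In these 4 lists no gene passed for CWG-cPIP against vehicle, where the medians were 0.20, 0.17, 0.21 and -0.13, or for CWG-cPIP against CUG10 mice, and the shares of all genes called there were those given above.

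Of 15 reactive astrocyte genes, 11 rose in vehicle-treated CUG300 against CUG10 mice and 0 fell, beside 7.37% of all genes called higher and 3.34% lower, and their median log2 fold change was 1.25. The count was 5 when CWG-cPIP replicate 1 was left out, where 216 genes in all were called higher and 49 lower. It was 0 when any of the CUG10 mice or vehicle-treated CUG300 replicate 3 was, the same 4 mice without which the Aqp4 call was lost. Gfap rose by 1.21 (SE 0.25, limma adjusted p = 0.0267) and Vim by 1.70 (limma adjusted p = 0.0267). The largest were those of Cd44, a hyaluronan receptor, at 2.88 (limma adjusted p = 0.0222), and Timp1, a protease inhibitor, at 2.84 (limma adjusted p = 0.0389), both of which other activated cells express as well. With CWG-cPIP against vehicle 0 of the 15 passed, 14 had lower values and the median was -0.49. Against CUG10 mice 0 passed with all mice and 9 without CWG-cPIP replicate 2. That fit called 497 genes higher and 70 lower of 14868 tested, where the fit to all mice called 0. Gfap was 14.99, 14.24 and 15.18 in mice given CWG-cPIP, 15.24, 15.04 and 15.34 in CUG300 mice given vehicle, and 13.66, 14.34 and 13.98 in CUG10 mice. Among the members, Aqp4 was called in the same direction as these genes and Sox9 and Aldh1l1 had the same sign.

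**Figure D5:**
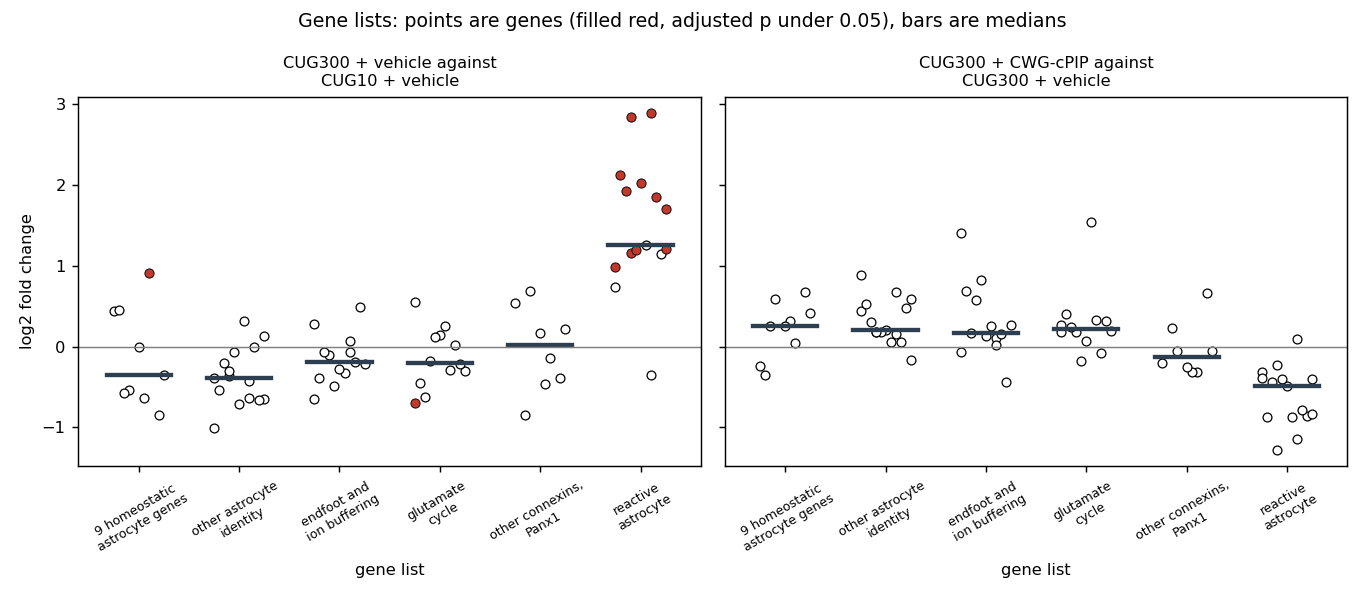
log2 fold changes of the 9 homeostatic astrocyte genes and of 5 other gene lists, for vehicle-treated CUG300 against CUG10 mice and for CWG-cPIP against vehicle. Points are genes, filled red where the adjusted p was under 0.05, and bars are medians; in the CUG300 vehicle against CUG10 panel the reactive list has 11 filled points and a median of 1.25, the 9 genes 1 filled point and a median of -0.35.

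Markers of other cells were read in the same comparison. In vehicle-treated CUG300 against CUG10 mice, 6 of 7 leukocyte genes and 3 of 7 microglia genes rose, 1 of 8 neuron genes (Syt1) fell, and 0 passed among 8 oligodendrocyte, 4 oligodendrocyte precursor, 5 endothelial, 8 choroid plexus, 6 ependymal and 7 thalamic genes, beside the same 7.37% and 3.34% of all genes. These calls too depended on single mice, since leaving out CUG10 replicate 1 or 3, or replicate 3 of the vehicle-treated CUG300 mice, left 0 genes called of all those tested, and leaving out CUG10 replicate 2 left 2. The medians were 2.53 for leukocytes, 0.52 for microglia, -0.40 for neurons, -0.59 for oligodendrocytes, -0.75 for precursors, 0.45 for endothelium, 1.14 for choroid plexus, 0.16 for ependyma and 0.43 for the thalamic genes. In the comparisons with CWG-cPIP mice 0 genes of any list passed. Neuron markers were present in every mouse, at a summed level of 15.73 to 16.35 on the log2 scale.

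Markers of neighbouring tissue varied between the groups too. The summed level of the 8 choroid plexus genes was 10.37 to 10.87 in the 3 mice given CWG-cPIP, 14.03 to 15.96 in vehicle-treated CUG300 mice and 10.47 to 14.90 in CUG10 mice, and its most abundant gene, Ttr, was 9.51 to 10.26, 13.88 to 15.89 and 9.78 to 14.74 in the same groups. The 6 ependymal genes, a cell type that also expresses Aqp4, S100b and Sox9, had summed levels of 8.70 to 9.09 with CWG-cPIP, 9.24 to 10.57 in vehicle-treated CUG300 mice and 9.21 to 10.22 in CUG10 mice. The mean over 7 thalamic genes was 6.17 to 6.40, 5.29 to 5.91 and 4.97 to 5.22 in these groups. Within these lists the lowest rlog value of any gene in any mouse was 4.53 for choroid plexus, 4.52 for ependyma and 3.03 for the thalamic genes. The last is below the log2(10) that a gene's mean had to reach for testing. Because rlog values are shrunk, a value above 0 does not show that a gene was detected. The part of such tissue in the members' values was not tested gene by gene. When the choroid plexus mean was added to the model, the Aqp4 difference between CUG300 mice given vehicle and CUG10 mice was 0.86 (limma adjusted p = 0.114), where no gene at all passed.

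Levels between genes were compared only per length, as group means less the log2 of the longest coding transcript in kilobases. On that scale Glul was highest in every group, at 12.92 with CWG-cPIP, 12.60 in CUG300 mice given vehicle and 13.23 in CUG10 mice, and Sox9 lowest, at 6.48, 6.83 and 6.38. In CUG10 mice the order below Glul was S100b (10.49), Slc1a3 (10.49), Slc1a2 (10.39), Gja1 (9.37), Gjb6 (8.85), Aqp4 (8.75), Aldh1l1 (8.31) and Sox9. The gaps among S100b, Slc1a3 and Slc1a2, and that between Gjb6 and Aqp4, were smaller than the SDs of these genes. In CUG300 mice given vehicle Aqp4 (9.66) stood above Slc1a2 (9.55) and Gja1 (8.83), although its gap to Slc1a2 was within their SDs. The whole order between Glul and Sox9 depends on which transcript is taken, since several members have transcripts of very different length. With the shortest coding transcript in place of the longest, Slc1a2 (14.1) lay above Aqp4 (13.1) in CUG300 mice given vehicle. On that scale S100b (10.49) lay below Aldh1l1 (11.22) in CUG10 mice.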

How the data were processed

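Hippocampal RNA of 9 mice was sequenced from directional libraries. Per the submitters' processing notes, Trim Galore 0.6.6 served for trimming, STAR 2.7.9a for alignment and RSEM 1.3.3 for gene quantification on mm10 (GRCm38). The authors then deposited DESeq2 1.36.0 rlog values on the log2 scale, in which counts are scaled by size factors and shrunk toward the mean of each gene. The gene annotation, the rlog options and the use of strand are not given in the sources used here, and without counts the depth per mouse is unknown.

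Of 24411 genes, 5175 stood at 1 value in all mice. A mean of log2(10) or more was required for testing, which left 14867 genes. They were fitted with limma 3.58.1 in R 4.3.3, with 1 mean per group, a variance pooled over all 9 mice with a trend, 3.03 prior degrees of freedom, Benjamini-Hochberg adjustment over all genes within a comparison, and two-sided tests called at an adjusted p under 0.05. The procedure was tested on simulated data. Groups came from the labels, and each mouse was 1 replicate. Values relative to the mean of the members were compared by exact permutation tests over mice.

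The members and lists were chosen with earlier results of these data known. Named genes were all members, the 2 at the head of each list and the 2 in it with the largest change in CUG300 vehicle against CUG10 mice, and the genes most like the mean of the members (5) or a member (3), leaving out predicted names. Slc7a11 was named after its value was seen. A few list genes are not reported here by name. Promoters came from RefSeq and overlaps from GENCODE, both on GRCm38. Alternatives changed the scaling (median centering, quantile scaling), the filter (none, or log2(100) with 11281 genes), the variance model (no trend, robust), the mice fitted (only 2 groups, or each mouse left out), the threshold (0.01) and the terms (replicate block, choroid plexus mean). For the other astrocyte lists they were added after seeing the data.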

Additional observations from a re-analysis of the deposited data

How the results depend on the processing

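Members called in vehicle-treated CUG300 against CUG10 mice numbered 1 as reported, 2 (Aqp4 and Glul) with only the groups compared, 0 at an adjusted p under 0.01 and 0 with the choroid plexus covariate, where the members' median was -0.12 in place of -0.35. Leaving out each mouse gave 0 to 3: 0 without any of the CUG10 mice or CUG300 vehicle replicate 3, 2 without CUG300 vehicle replicate 1 (Aqp4, S100b), 3 without replicate 2 (Aqp4, Slc1a2, Sox9), and 3 without CWG-cPIP replicate 2 (Aqp4, Aldh1l1, Glul) or replicate 3 (Aqp4, Slc1a2, Glul). It gave 0 to 1 called in CWG-cPIP against CUG10 mice (Aqp4 without CWG-cPIP replicate 2) and 0 to 1 in the F test. For Aqp4 in CUG300 vehicle against CUG10 mice the log2 fold change was 0.77 to 1.02 over 18 alternatives, past the threshold in 13 of them (limma adjusted p 0.0103 to 0.114).

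Some differences turned sign, none of them past the threshold. Slc1a3 in CUG300 vehicle against CUG10 mice was 0.055 with quantile scaling, 0.088 with the covariate and -0.132 to 0.156 leaving out each mouse. In CWG-cPIP against CUG10 mice, Gja1 was -0.0064 with median centering, -0.0454 with the covariate and -0.149 to 0.293 leaving out each mouse, Gjb6 was -0.197 with the covariate and -0.14 to 0.27, and Slc1a2 was -0.448 to 0.193. In CWG-cPIP against vehicle, Gjb6 was -0.0777 with the covariate, and leaving out each mouse gave -0.0782 to 0.185 for Aqp4 and -0.0278 to 0.66 for S100b. The cause was not tested.

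In the other lists, alternatives chosen after seeing the data moved these counts in CUG300 vehicle against CUG10 mice. Reactive genes called were 0 at an adjusted p under 0.01, 0 with the covariate and 0 to 13 leaving out each mouse, and 0 to 9 in CWG-cPIP against CUG10 mice. Glutamate cycle genes were 2 with median centering, 0 at 0.01, 0 with the covariate and 0 to 3 leaving out each mouse. Identity genes were 1 with only the groups compared, 1 with the block and 0 to 1 leaving out each mouse, against 0 as reported. Connexins and endfoot genes were each 0 to 1 leaving out each mouse. Over all genes, 1014 were called higher and 908 lower with median centering, and 888 and 642 with quantile scaling, in place of 1096 and 496. Leaving out each mouse gave 0 to 1523 genes higher and 0 to 1166 lower. In CWG-cPIP against CUG10 mice it gave 0 to 497 higher and 0 to 70 lower.

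Deviations from group means of same-numbered mice correlated at -0.50 to 0.41 (9 pairs, 3 of them over 0.1). Those of other-numbered mice correlated at -0.52 to 0.46 (18 pairs, 7 of them over 0.1). Whether same-numbered mice shared more than a number cannot be told from these ranges. The replicate block called 1 member (Aqp4, log2 fold change 0.91), with 1107 genes higher and 405 lower. Without counts, what depth limits cannot be stated, and 3 mice per group limit the precision.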
